A study of Mus musculus with 6 samples.

Results

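Core glycolysis, from glucose phosphate isomerase to enolase, was described here through the transcripts of 10 mouse genes: Gpi1, Pfkl, Pfkm, Pfkp, Aldoa, Tpi1, Gapdh, Pgk1, Pgam1 and Eno1. They were taken by name as gene rows of the deposited table, processed pseudogenes left out, and are 10 of its 22095 gene rows. The cells were wild-type C57BL/6 CD8 T cells, isolated as naive cells from spleen and kept for 48 h under CD3 and CD28 antibody stimulation in medium with serum and mouse IL-2. One group of 3 libraries had 10 nM ponatinib, a kinase inhibitor made against BCR-ABL, and the other group of 3 libraries had its solvent, DMSO. Both groups were stimulated, and no library comes from unstimulated cells or an earlier time. Whether replicates came from separate animals or cultures is not stated, so the p-values reflect the scatter among these samples alone, and that scatter may be technical.

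Glycolysis splits glucose into pyruvate in the cytosol and yields ATP and NADH. Phosphofructokinase is its first committed step. The enzymes after aldolase handle triose phosphates and the phosphoglycerates made from them, and are usually made in large amounts. T cells that leave the resting state raise their glycolytic flux, and textbook accounts tie transcription of these genes to the factors HIF-1 and MYC. The comparison asked how the level of each enzyme's transcript with ponatinib compared with that with DMSO, and whether the enzymes differed to the same extent. A fall here means a lower level than with DMSO at 48 h. It does not mean a loss from an earlier level, which was not measured.

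All 10 enzyme transcripts were lower with ponatinib, and in none did the groups overlap. Their summed level was 10104, 11100 and 11424 TPM (a length-corrected share of all transcripts in the library) in the ponatinib libraries, against 20011, 19119 and 21847 TPM in the DMSO libraries. The means were 10876 ± 688 TPM with ponatinib and 20326 ± 1391 TPM with DMSO (SD, n = 3 each), so the 10 genes held 1.01% to 1.14% of all TPM with ponatinib and 1.91% to 2.18% with DMSO. The fall ranged from 1.35-fold for Pgam1 to 2.77-fold for Pfkp. In the fit across all genes (limma on log2(TPM + 1), called at an adjusted p under 0.05), 10 of 10 were called lower, where 9.88% of the 6466 gene rows with a mean of at least 10 TPM were called lower and 29.9% higher. Groups that did not overlap, with ponatinib lower, made up 14.0% of those rows. The median log2 fold change was -0.98 over the 10 genes and 0.10 over all kept rows. When libraries were scaled by medians of ratios, which brought the median of all rows to 0.0011, 18.0% of rows were called lower and 16.4% higher, and the 10 genes lay between -1.55 and -0.54, all called. In bulk RNA, fewer cells with a transcript and less of it per cell cannot be told apart.

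**Figure D1:**
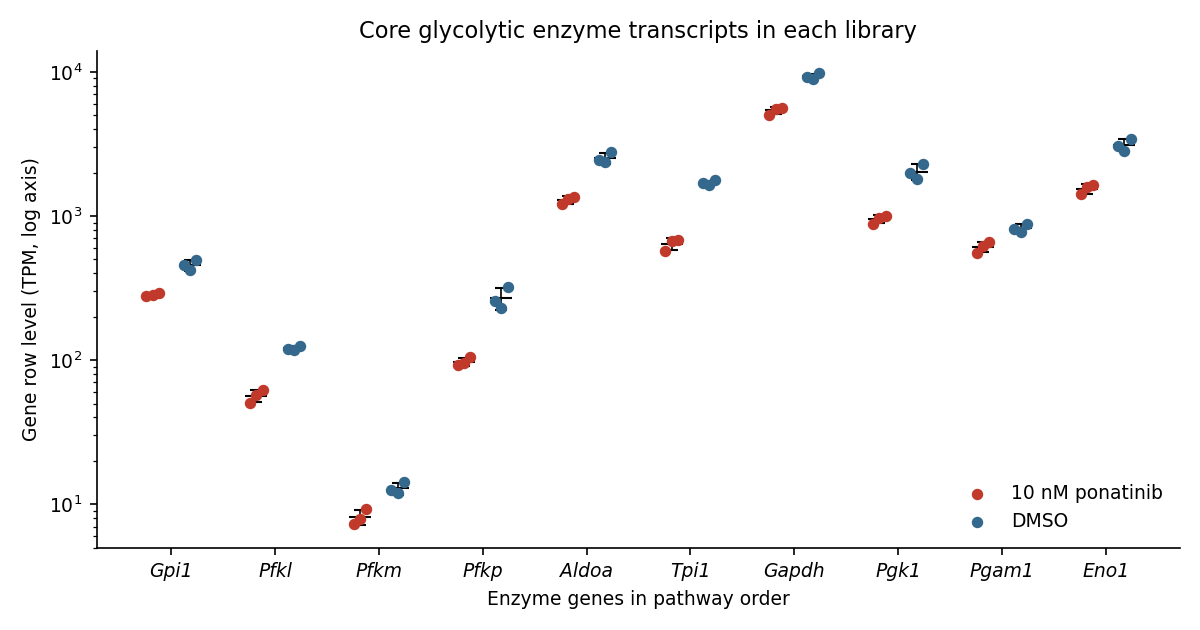
Level of each enzyme transcript in each library, in TPM on a log axis, with the genes in pathway order, ponatinib libraries in red on the left and DMSO libraries in blue on the right of each pair; bars are the mean and SD of 3 libraries. In all 10 genes the 3 ponatinib points lie below the 3 DMSO points, and levels span from 7.30 TPM for Pfkm to 9749 TPM for Gapdh.

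The regions just before the transcription starts are shown because the 10 genes moved in 1 direction and because HIF-1 and MYC are known to bind short motifs there. RefSeq starts of GRCm38.p6 were found for all 10 genes, with 17 windows of the 250 bases before a start in all. The motifs searched on both strands were ACGTG and GCGTG, the core of the hypoxia element, and CACGTG, the E-box, which contains ACGTG. The windows printed are those of the enzyme at the head of the set (Gpi1), of the largest and the smallest fall (Pfkp and Pgam1) and of Pgk1, whose promoter is a textbook hypoxia target. Each is written 5′ to 3′ on the strand of its gene, and capitals mark the ACGTG and GCGTG matches and their reverse complements.
Gpi1, minus strand, chr7:34230337-34230586: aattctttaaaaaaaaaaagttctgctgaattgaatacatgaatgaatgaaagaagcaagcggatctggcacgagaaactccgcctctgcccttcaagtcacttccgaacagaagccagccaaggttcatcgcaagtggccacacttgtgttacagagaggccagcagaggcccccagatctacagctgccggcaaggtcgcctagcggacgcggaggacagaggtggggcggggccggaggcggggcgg
Pfkp, minus strand, chr13:6648772-6649021: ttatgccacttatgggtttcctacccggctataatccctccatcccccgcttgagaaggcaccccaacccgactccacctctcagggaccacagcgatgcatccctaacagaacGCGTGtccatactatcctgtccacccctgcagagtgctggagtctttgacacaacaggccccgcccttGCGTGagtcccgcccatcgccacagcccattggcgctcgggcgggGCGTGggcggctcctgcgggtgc
Pgk1, plus strand, chrX:106186850-106187099: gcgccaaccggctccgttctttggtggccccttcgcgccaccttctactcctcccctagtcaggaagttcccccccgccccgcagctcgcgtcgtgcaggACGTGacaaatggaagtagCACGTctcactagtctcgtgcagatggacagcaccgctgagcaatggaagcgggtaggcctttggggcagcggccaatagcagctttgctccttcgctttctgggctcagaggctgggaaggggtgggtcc
Pgam1, plus strand, chr19:41911621-41911870: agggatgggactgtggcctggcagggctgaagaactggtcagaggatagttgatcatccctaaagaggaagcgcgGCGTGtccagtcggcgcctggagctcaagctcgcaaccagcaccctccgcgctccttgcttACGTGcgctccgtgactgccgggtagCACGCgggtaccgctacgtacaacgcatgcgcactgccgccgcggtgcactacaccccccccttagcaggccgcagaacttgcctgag

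The Gpi1 window held neither core motif. Pfkp held GCGTG starting 136, 68 and 23 bases before the start. Pgk1 held ACGTG at 150 bases and, on the other strand, at 131 bases before the start. Pgam1 held 3 cores, at 175, 114 and 88 bases. In all, 8 of the 10 genes had a core motif in at least 1 of their windows, the exceptions being Gpi1 and Tpi1, and 13 of 17 windows had one. Among the 6532 windows of kept genes 59.6% had one, and among all 32851 promoter windows of the same length 38.6%. Among the 5166 kept genes with a window, 65.4% had one in at least 1 window. Some windows of Pfkm, Aldoa and Eno1 overlapped, so the same site was counted in more than 1 window of these genes. The E-box was in 1 of the 17 windows, a Pfkm one, in 8.85% of the windows of kept genes and in 6.02% of all windows. A match is a stretch of letters and not a measured binding site.

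Gpi1 encodes glucose-6-phosphate isomerase, which turns glucose phosphate into fructose phosphate. Its level was 279, 285 and 293 TPM in the ponatinib libraries, against 455, 419 and 495 TPM in the DMSO libraries. The ponatinib values lay close together and well under the lowest DMSO value. Gpi1 fell 1.60-fold (log2 fold change -0.67, SE 0.06, adjusted p = 4.26e-04). In GRCm38 the gene (ENSMUSG00000036427) spans chr7:34201330-34230336 on the minus strand.

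Pfkl, Pfkm and Pfkp encode the liver-type, muscle-type and platelet-type subunits of phosphofructokinase, which assemble into tetramers. Pfkp, the most abundant of the set's phosphofructokinase transcripts, had 92.2, 96.0 and 105 TPM under ponatinib, against 256, 231 and 324 TPM under DMSO. Pfkp fell 2.77-fold (log2 fold change -1.45, SE 0.12, adjusted p = 2.23e-04), the largest fall among the 10 genes, and DMSO replicate 3 was its highest library. Leaving that library out gave a log2 fold change of -1.31. Pfkp (ENSMUSG00000021196) lies at chr13:6579768-6648777, minus strand.

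Pfkl had 50.6, 57.0 and 61.7 TPM under ponatinib, against 119.7, 118 and 125 TPM under DMSO. Its DMSO libraries agreed to within 1.06-fold, and it fell 2.14-fold (log2 fold change -1.09, SE 0.07, adjusted p = 1.48e-04). Pfkm was the least abundant gene of the set, at 7.30, 7.89 and 9.20 TPM under ponatinib, against 12.5, 11.9 and 14.3 TPM under DMSO. It was lower in all 3 ponatinib libraries and fell 1.59-fold (log2 fold change -0.61, SE 0.11, adjusted p = 0.00423). Its mean over the 6 libraries lay close to the minimum of 10 TPM, and without DMSO replicate 3 it was not kept for testing. Pfkl (ENSMUSG00000020277) spans chr10:77986947-78010083, minus strand, and Pfkm (ENSMUSG00000033065) chr15:98092589-98132451, plus strand.

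The shares of the subunits in the phosphofructokinase pool were also compared. The summed level of the 3 subunit transcripts was 162 ± 12.8 TPM with ponatinib and 404 ± 52.6 TPM with DMSO (SD, n = 3 each). Pfkp made up 60.3% ± 1.03 of that sum with ponatinib and 66.6% ± 3.03 with DMSO. Pfkl made up 34.7% ± 0.922 with ponatinib and 30.2% ± 2.93 with DMSO. Pfkm took 4.86% to 5.24% with ponatinib and 3.09% to 3.29% with DMSO. Log2 ratios between subunits were then formed within each library from TPM + 1. The Pfkm to Pfkp ratio was 0.84 higher with ponatinib, at -3.44 ± 0.06 against -4.28 ± 0.12 with DMSO. The Pfkl to Pfkp ratio was 0.36 higher and the Pfkl to Pfkm ratio was 0.48 lower (difference -0.48). In all 3 ratios the groups did not overlap, and the exact permutation test over samples, two-sided, gave 0.10 for each, also after adjustment over the 3 ratios, which is the smallest p that 3 against 3 libraries allow. The 3 ratios are not independent, since each follows from the others. How many other gene pairs have ratios that separate the groups was not computed, so this count has no background. Ratios of plain TPM, in which a scaling of the library cancels, were tried after the data were seen and gave 0.79, 0.35 and -0.44 in the same order, again without overlap.

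**Figure D2:**
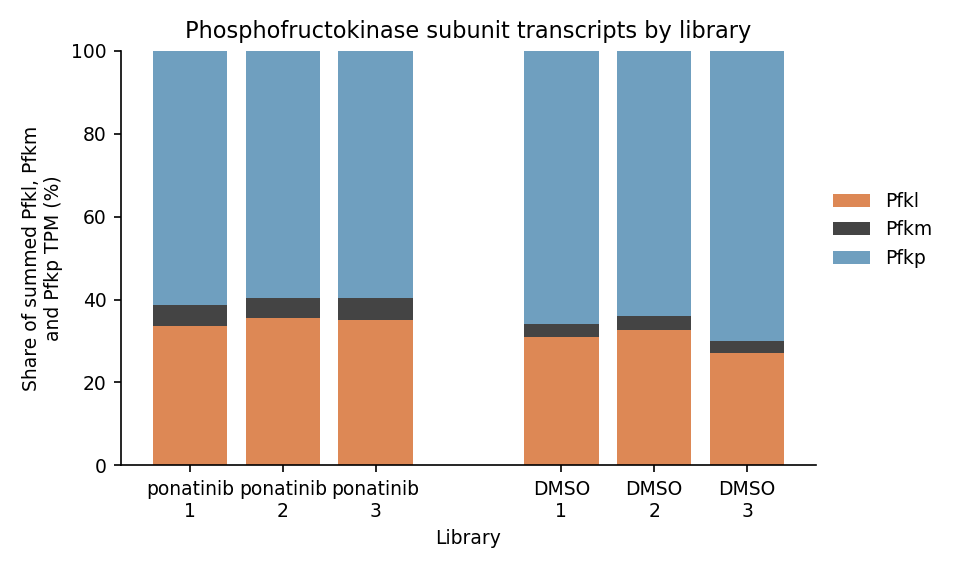
Share of Pfkl, Pfkm and Pfkp in their summed TPM, in percent, for each ponatinib library (left) and DMSO library (right). Pfkp takes 59.6% to 61.4% in the ponatinib libraries and 64.0% to 69.9% in the DMSO libraries.

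Aldoa encodes aldolase A, which cleaves fructose bisphosphate into triose phosphates. It had 1211, 1315 and 1358 TPM under ponatinib, against 2428, 2351 and 2763 TPM under DMSO. Aldoa fell 1.94-fold (log2 fold change -0.95, SE 0.07, adjusted p = 1.82e-04). The locus used (ENSMUSG00000030695) is chr7:126795234-126800751, minus strand. A second locus of the same name (ENSMUSG00000114515), upstream of the first on chromosome 7 at 126800790 to 126809108, has a gene row of its own, and it was at 0 to 0.280 TPM in every library, so it was not used.

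Tpi1 encodes triosephosphate isomerase, which interconverts the aldolase products. Its levels were 573, 669 and 679 TPM under ponatinib, against 1682, 1629 and 1763 TPM under DMSO. The fall was 2.64-fold (log2 fold change -1.40, SE 0.07, adjusted p = 4.75e-05), and the adjusted p was the smallest of the set. Of all 6466 kept rows, 49, Tpi1 included, had a log2 fold change as low or lower. Tpi1 (ENSMUSG00000023456) is at chr6:124810586-124814296, minus strand.

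Gapdh encodes glyceraldehyde-3-phosphate dehydrogenase, which oxidises triose phosphate and makes NADH. It was the most abundant member, with 5039, 5491 and 5631 TPM under ponatinib, against 9218, 8949.7 and 9749 TPM under DMSO. No library stood apart within either group, and Gapdh fell 1.73-fold (log2 fold change -0.79, SE 0.06, adjusted p = 1.74e-04). Among all gene rows Gapdh ranked from 13 to 20 by level in the ponatinib libraries, against 4 to 9 in the DMSO libraries. Gapdh (ENSMUSG00000057666) is at chr6:125161715-125166467, minus strand.

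Pgk1 encodes phosphoglycerate kinase, the first ATP-yielding step. It had 881, 974 and 1007 TPM under ponatinib, against 1981, 1795 and 2296 TPM under DMSO, and fell 2.12-fold (log2 fold change -1.08, SE 0.09, adjusted p = 2.92e-04). Pgam1 encodes phosphoglycerate mutase, which moves the phosphate group within phosphoglycerate. Its levels were 557, 615 and 654 TPM under ponatinib, against 811, 778 and 877 TPM under DMSO. The gap between the groups was the narrowest of the set, with a 1.35-fold fall (log2 fold change -0.43, SE 0.07, adjusted p = 0.00303). Pgk1 (ENSMUSG00000062070) spans chrX:106187100-106203699 and Pgam1 (ENSMUSG00000011752) chr19:41911923-41918660, both on the plus strand.

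Eno1 encodes alpha-enolase, which makes phosphoenolpyruvate. It had 1415, 1589 and 1626 TPM under ponatinib, against 3047, 2836 and 3442 TPM under DMSO. Eno1 fell 2.01-fold (log2 fold change -1.01, SE 0.08, adjusted p = 2.43e-04). Eno1 (ENSMUSG00000063524) is at chr4:150236721-150248879, plus strand. By mean level in TPM, the order was Gapdh, Eno1, Aldoa, Pgk1, Tpi1, Pgam1, Gpi1, Pfkp, Pfkl and Pfkm in both groups. Neighbours in that order did not overlap between libraries of 1 group, except Tpi1 and Pgam1 with ponatinib: Tpi1 averaged 640.3 ± 58.6 TPM and Pgam1 609 ± 49.1 TPM with ponatinib, and they averaged 1692 ± 67.3 and 822 ± 50.4 TPM with DMSO (SD, n = 3 each).

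**Figure D3:**
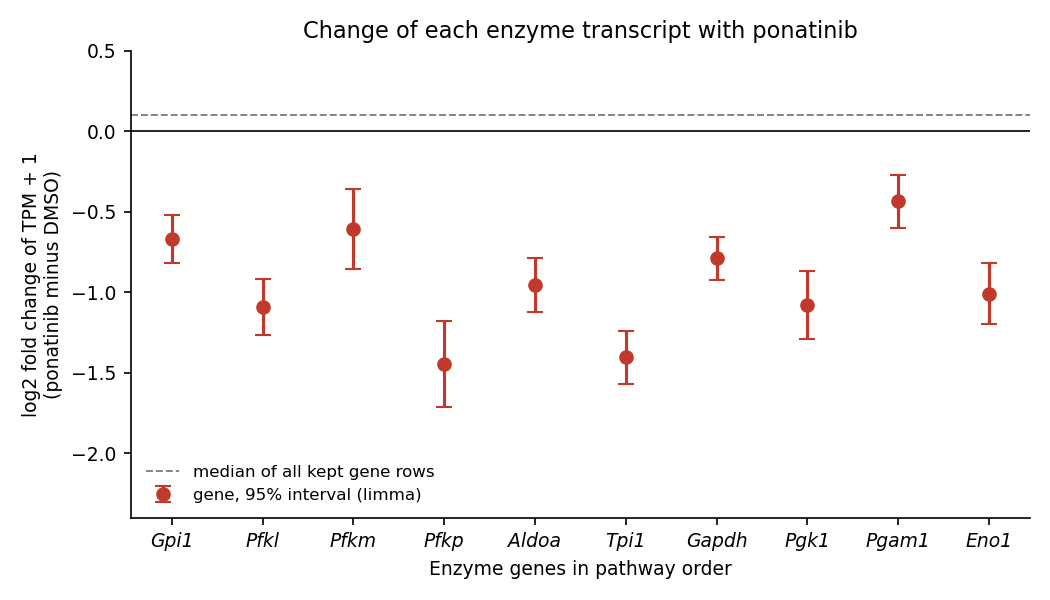
Log2 fold change of TPM + 1, ponatinib minus DMSO, for the 10 genes in pathway order, with 95% intervals from the limma fit; the dashed line is the median of all kept gene rows. Every interval lies below 0, from -1.45 for Pfkp to -0.43 for Pgam1, with no steady trend along the pathway.

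The log2 fold changes were not alike in size across the 10 genes. Ratios to Gapdh were formed within each library from TPM + 1, 9 in all. The ratio of Pgam1 to Gapdh was 0.36 higher with ponatinib on the log2 scale, that of Pfkm 0.18 higher and that of Gpi1 0.12 higher. The ratio of Pfkp to Gapdh differed by -0.66, that of Tpi1 by -0.61, that of Pfkl by -0.30, that of Pgk1 by -0.29, that of Eno1 by -0.22 and that of Aldoa by -0.17. Thus 6 ratios were lower and 3 higher, and on this scale the groups did not overlap in any of the 9. Each had an exact two-sided permutation p of 0.10, also adjusted over the 9, the smallest p possible with 3 against 3 libraries. How many of all kept rows have ratios to Gapdh that separate the groups was not computed, so these counts have no background. Of all kept rows, 98.0% had a log2 fold change above that of Gapdh. With plain TPM the groups were apart in 8 of 9 ratios, and that of Pfkm to Gapdh overlapped (difference 0.12, exact permutation p = 0.30). The Gpi1 to Gapdh ratio had a difference of only 0.06 when transcript rows were added to their gene (exact permutation p = 0.40). The 95% interval of the log2 fold change was -1.57 to -1.24 for Tpi1 and -0.60 to -0.27 for Pgam1.

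**Figure D4:**
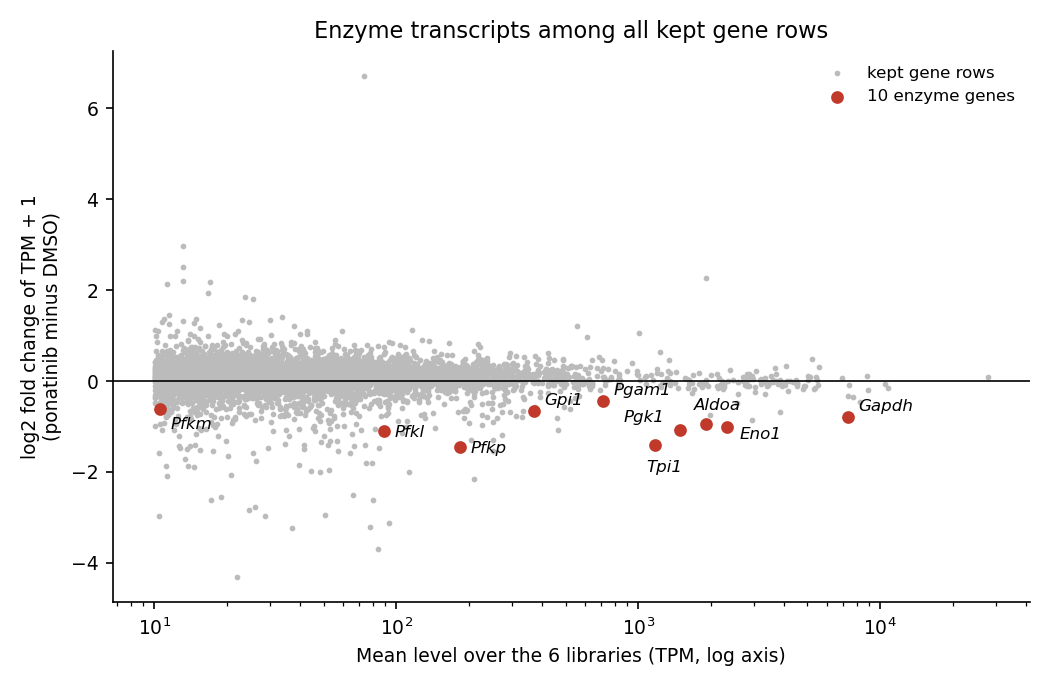
Each kept gene row by its mean level over the 6 libraries (TPM, log axis) and its log2 fold change, ponatinib minus DMSO, with the 10 enzyme genes in red. Gapdh, Eno1, Aldoa, Pgk1 and Tpi1 sit at the abundant end. Of kept rows at all levels, 2.00% lie as low as Gapdh or lower.

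The table also holds rows for single transcripts outside the annotation's basic set, and 8 of the 10 genes had such rows, 25 in all. Gene and transcript rows together sum to the library total, so these values are not part of the gene rows. Most were small: 4 reached a mean of 10 TPM and 5 were at 0 in all libraries. For Pfkl they made up 0% to 9.84% of gene and transcript rows together with ponatinib and 7.02% to 15.3% with DMSO. With transcript rows added, the log2 ratios differed by 0.28 for Pfkl to Pfkp. They differed by -0.59 for Pfkl to Pfkm and by 0.87 for Pfkm to Pfkp. For Gpi1 the transcript rows were large. Gpi1-207, annotated as a target of nonsense-mediated decay, had 136, 147 and 129 TPM under ponatinib, against 224, 238 and 219.8 TPM under DMSO. It fell (log2 fold change -0.72, SE 0.06, adjusted p = 8.04e-04) when every row of the table was tested in one limma fit, an alternative added after the data were seen, in which 8.72% of 7348 rows were called lower. As a share of all Gpi1 rows it was 31.7%, 31.5% and 29.4% with ponatinib and 31.1%, 33.0% and 28.6% with DMSO, so the shares overlapped.

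Aldoa-210, a protein-coding transcript row, had 61.2, 54.6 and 52.6 TPM under ponatinib, against 141, 161 and 184 TPM under DMSO (log2 fold change -1.51, SE 0.11, adjusted p = 5.08e-04). Its share of all Aldoa rows was 3.72% to 4.80% with ponatinib and 5.47% to 6.41% with DMSO, a difference that was not tested. Gpi1-205 and Gpi1-206 did not pass the test (adjusted p = 0.194 and 0.181), and each was at 0 in 1 ponatinib library. The sources used here do not say how reads were divided among such transcripts.

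Other genes of the pathway numbered 27 in a list of same-step relatives, entry and exit enzymes, controllers and the glycerol phosphate branch. Of these, 8 were kept, 4 were called lower and 0 higher, where 9.88% of all kept rows were called lower and 29.9% higher. Eno3, the muscle-type enolase, fell to 30.2 ± 5.97 TPM with ponatinib, against 70.6 ± 4.99 TPM with DMSO (log2 fold change -1.21, adjusted p = 6.39e-04). The hexokinase genes Hk1 and Hk2, whose products phosphorylate glucose, had log2 fold changes of -0.59 and -0.71, and Pkm, pyruvate kinase at the exit, had -0.75, all called lower (adjusted p = 3.92e-04, 0.00771 and 3.92e-04). Pfkfb3 and Tigar, which set the level of an activator of phosphofructokinase, were not called, at -0.22 and 0.23 (adjusted p = 0.102 and 0.126), but Pfkfb3 was called lower under medians of ratios (-0.32, adjusted p = 0.0171) and Tigar higher without DMSO replicate 3 (0.33, adjusted p = 0.00827). Gpd1l and Gpd2 of the glycerol phosphate branch were not called either, at 0.03 and 0.14, but Gpd2 was called higher without DMSO replicate 3 (0.20, adjusted p = 0.0281).

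Among relatives under 10 TPM, Aldoc, the brain-type aldolase, was at 0.587, 0.717 and 0.671 TPM under ponatinib, against 9.86, 8.93 and 13.5 TPM under DMSO. Its mean was 16.3-fold lower, and it was called lower with a minimum mean of 1 TPM (log2 fold change -2.81, adjusted p = 6.48e-05). With that minimum 958 of 10039 rows were called lower and 2398 higher. Bpgm, another same-step relative, went the other way and was not called (0.24, adjusted p = 0.0939). It averaged 10.2 TPM with ponatinib and 8.45 TPM with DMSO. Pfkfb1, one of the controllers, was not called either (-0.29, adjusted p = 0.118). For Bpgm and Pfkfb1 alike the groups did not overlap. Eno1b, an Eno1 relative, did not exceed 0.484 TPM in any library. Only 24 gene rows of the table belong to genes annotated as pseudogenes, against 13525 such genes in the annotation. Gapdh and several of the other enzyme genes have many processed copies in the genome, so reads from an expressed copy could have been counted to the parent gene. In the glucose and lactate transport list, 4 of 6 genes fell and 0 rose, against the same 9.88% and 29.9% of all kept rows. Slc16a1, another lactate transporter gene, was not called, at 0.10 (adjusted p = 0.553), but was called higher without DMSO replicate 3 (0.24, adjusted p = 0.0141). The glucose transporter genes Slc2a1 and Slc2a3 had log2 fold changes of -1.33 and -1.99, Slc16a3, a lactate exporter, -3.70, and Ldha, which makes lactate, -0.86, the highest adjusted p being 9.37e-04.

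Genes most like the set were sought among 1224 other gene rows with a mean of at least 100 TPM, by the distance between log2(TPM + 1) values centred per gene over the 6 libraries and the mean profile of the 10 genes. The nearest 5 were Fam162a (0.11), Ldha (0.13), Pim2 (0.18), Ptms (0.20) and Sars (0.23). Fam162a had 141, 159 and 159 TPM under ponatinib, against 283, 273 and 343 TPM under DMSO, and Ldha, lactate dehydrogenase A, averaged 2102 ± 172 TPM with ponatinib and 3822 ± 165 TPM with DMSO. Within the set, Aldoa and Eno1 lay nearest to the mean profile (0.04 and 0.09), and Pfkp and Pgam1 farthest (0.64 and 0.63).

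Gapdh and Pgk1 are often used to scale other transcripts, and both fell here. Of 9 other transcripts used in that way, 7 were not called, and Actb and Ywhaz rose by 0.30 and 0.61 on the log2 scale (adjusted p = 0.0126 and 0.0417). The Ywhaz call was lost in several alternatives, among them medians of ratios (0.50, adjusted p = 0.0616), and that of Actb without ponatinib replicate 3 (0.28, adjusted p = 0.0554). The Gapdh to Actb ratio was 0.804, 0.937 and 0.898 in the ponatinib libraries, against 1.87, 1.96 and 1.78 in the DMSO libraries, so Actb exceeded Gapdh in each ponatinib library and Gapdh exceeded Actb in each DMSO library. Over each of the 9, the Gapdh ratio was lower in every ponatinib library than in any DMSO library, with mean ratios at 0.370 (Ywhaz) to 0.647 (Ppia) of the DMSO mean. The 9 ratios share the same Gapdh values, so they restate the Gapdh fall and are not independent readings.

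**Figure D5:**
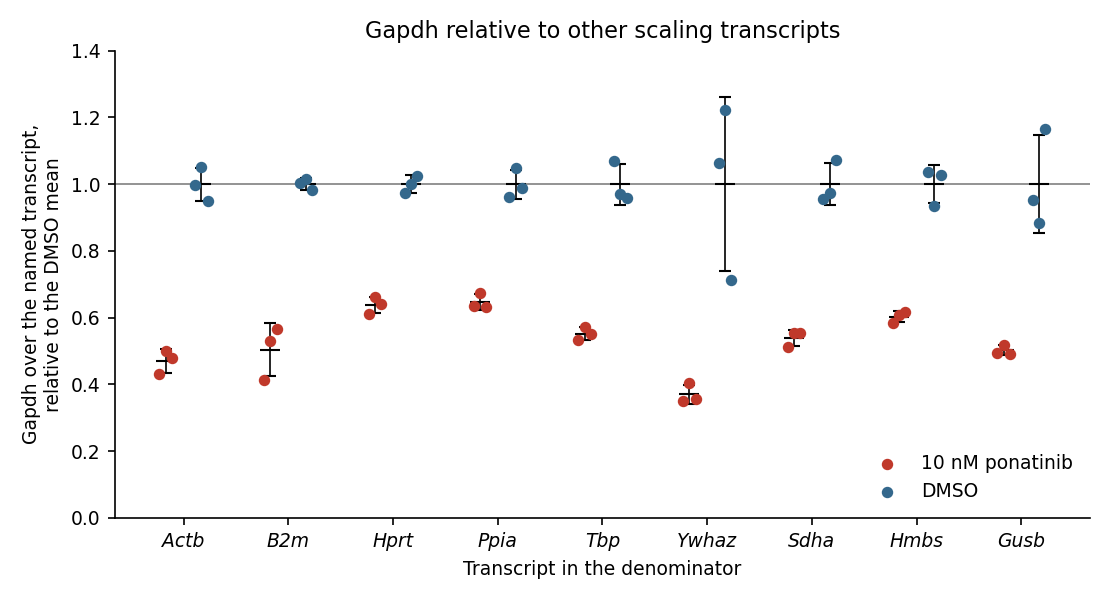
Ratio of Gapdh to each of 9 other scaling transcripts in each library, divided by the DMSO mean of that ratio, ponatinib in red on the left and DMSO in blue on the right; bars are mean and SD of 3 libraries. The ponatinib points lie below the DMSO points for all 9, with means from 0.370 for Ywhaz to 0.647 for Ppia.

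Read depth is unknown, since TPM keep none. Mitochondrial genes held 7.16% to 8.19% of TPM with ponatinib and 4.78% to 10.7% with DMSO, the low value in DMSO replicate 3. The 5 CD8 T cell markers summed to 1562 to 1795 TPM with ponatinib and 1332 to 1354 TPM with DMSO. Among them Cd3d and Cd3g overlapped between the groups, and Cd3e, Cd8a and Cd8b1 did not. Markers of B cells, 5 of 5 detected, summed to 16.7 to 18.2 TPM with ponatinib and 7.16 to 13.1 TPM with DMSO. Most of that sum was Cd79b, at 12.4 to 14.0 TPM with ponatinib and 6.69 to 9.48 TPM with DMSO. Myeloid markers, 5 of 5, summed to 1.41 to 3.22 TPM with ponatinib and 0.205 to 0.358 TPM with DMSO. With ponatinib most of the myeloid sum was Lyz2, at 1.13 to 2.81 TPM, against 0.0422 to 0.260 TPM with DMSO. No other myeloid marker exceeded 0.185 TPM in any library. Cd4 was at 4.23 to 5.32 TPM with ponatinib and 0.713 to 2.84 TPM with DMSO. Markers of NK cells summed to 0.276 to 0.603 TPM with ponatinib and 0 to 0.0191 TPM with DMSO, and those of erythroid cells and platelets to 2.11 to 4.87 TPM with ponatinib and 0.366 to 1.20 TPM with DMSO. Ncr1, which defines NK cells, was at 0 in all DMSO libraries. The part of these differences in the enzyme levels was not tested.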

How the data were processed

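RNA was measured in 3 ponatinib and 3 DMSO libraries made with a NEBNext Ultra II kit, per the labels' protocols. The authors deposited 1 table with 22095 gene rows and 20977 transcript rows, whose values are TPM, since every column sums to 1000000. Per the submitters' processing notes the build was GRCm38 and the tools were DESeq2 1.22.1, Salmon 1.5.1 and fastp 0.19.5, with no role stated. Gene summing and strand handling are not given in the sources used. TPM are relative to the library total, so large changes elsewhere move every gene, and they carry no read depth.

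Columns were matched to samples by library name, and 0 columns were left over. GENCODE mouse release 21 (GRCm38) supplied symbols and positions for 22011 gene rows; the authors' release may differ. Gene rows averaging 10 TPM or more across libraries (6466) were transformed to log2(TPM + 1) and compared, ponatinib minus DMSO, with limma 3.58.1 (intensity trend) in R 4.3.3, two-sided, with Benjamini-Hochberg adjustment over all kept rows and a call under 0.05. The script was tested on simulated data. Linear folds compare mean TPM. Within-library ratios used exact permutation tests over samples. The members, lists, tests and the rule for named genes (all 10 members, the pathway list and the 5 most similar genes) were chosen with earlier results of these data known. One listed gene is not reported here. Alternatives were other scalings, minimum means, pseudocounts, variance models, transcript rows added to their gene, a replicate block and each library left out.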

Additional observations from a re-analysis of the deposited data

How the results depend on the processing

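All 10 genes were called lower under medians of ratios, quantile normalization, a pseudocount of 0.1, a minimum mean of 1 TPM, no filter, added transcript rows, robust empirical Bayes, no intensity trend and a replicate block. With a minimum mean of 100 TPM the 8 genes kept were called lower, and without DMSO replicate 3 the 9 kept, Pfkm being under the minimum. Over 157 refits of single genes in 16 alternatives the highest limma adjusted p was 0.0213, and log2 fold changes ranged from -1.55 to -1.31 for Pfkp and from -0.54 to -0.37 for Pgam1. The summed level with ponatinib was 0.535 of that with DMSO, and 0.520 to 0.556 with 1 library left out. Ratios within libraries kept their direction in each alternative, but the Pfkm to Gapdh ratio had exact permutation p = 0.30 with a pseudocount of 0.1 (difference 0.13) or none (0.12), and the Gpi1 to Gapdh ratio p = 0.40 with transcript rows added (0.06). Without any 1 ponatinib library the Pfkl to Pfkp ratio had exact permutation p = 0.20. So did the Gpi1 to Gapdh ratio without ponatinib replicate 1 and the Pfkm to Gapdh ratio without ponatinib replicate 3. Over all kept rows 1931 were higher and 639 lower (75.1% of calls higher). Medians of ratios gave 1059 and 1166 (47.6%), quantile normalization 1276 and 1001, and a minimum mean of 100 TPM 428 and 137, where fewer rows were tested. With 1 library left out, higher rows numbered from 1138 (without ponatinib replicate 3) to 2745 (without DMSO replicate 3), with 1197 without ponatinib replicate 2, and lower rows from 463 to 677; apart from the filters, the cause was not tested. Whether replicate numbers pair the libraries is not stated. Over all kept rows, same-numbered libraries' deviations from the group means correlated at -0.0979, 0.127 and 0.0094. With 3 libraries in a group such values cannot settle pairing. The replicate block gave 1911 higher and 646 lower rows. It gave an SE of 0.07 for Pfkp, against 0.12 without it, and 0.06 for Gapdh with or without it. Read depth is unknown, so no counting error is given.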

Other observations

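Among the 144 gene rows with a mean of at least 1000 TPM, a level chosen after the values were seen, 8 had a log2 fold change under -0.5 with ponatinib. They were Tpi1, Pgk1, Eno1, Aldoa and Gapdh, all 5 of the enzyme genes at that level, together with Ldha, Pkm and Gzmb. Among kept rows of all levels, 3.17% had a log2 fold change at or below that of Pfkm (-0.61). At or below that of Pgam1 (-0.43) were 5.30%, so the share under -0.5 lay between these values. Pkm averaged 1474 ± 85.2 TPM with ponatinib and 2475 ± 199 TPM with DMSO (SD, n = 3 each). Gzmb, the granzyme B gene and the only one of the 8 outside the glycolytic and lactate enzymes, averaged 2889 ± 346 TPM with ponatinib and 4809 ± 1637 TPM with DMSO (limma log2 fold change -0.69, adjusted p = 0.0294), a call lost with any 1 ponatinib library left out (adjusted p = 0.0573 to 0.108), under quantile normalization (0.0623), with no filter (0.0879) and with robust empirical Bayes (0.0805). Without DMSO replicate 3 its log2 fold change was -0.43 (adjusted p = 0.00289), which is not under -0.5.

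The 10 genes deviated alike between the replicates of a group. Ponatinib replicate 3 was the highest and replicate 1 the lowest of its group in 10 of 10 genes, and DMSO replicate 3 was the highest and replicate 2 the lowest in 10 of 10. Among all 6466 kept rows the ponatinib order was seen in 32.5%, the DMSO order in 40.3% and both in 14.3%. The members therefore share their deviations in TPM between libraries and are not independent readings of the treatment. The scaling factors from medians of ratios had the same order. They were 1.02, 1.04 and 1.06 for ponatinib replicates 1, 2 and 3, and 0.950, 0.938 and 1.01 for DMSO replicates 1, 2 and 3. The part of library scaling in the shared order was not tested.

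Relative to Gapdh, the median log2 fold change of all kept rows was 0.89, and 6337 of 6466 had a log2 fold change above that of Gapdh. Values divided by Gapdh would thus place nearly every transcript higher with ponatinib.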
